A study of Mus musculus with 32 samples.

Results

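Map2, Mapt, Map4, Map1a, Map1b and Map6 encode the classical microtubule-associated proteins of neurons. These 6 genes, of 55573 in the count table, were followed by their symbols through RNA-seq of soma and neurites and through DART-seq, which reads m6A from C-to-U editing. Hippocampal neurons from newborn mice were grown for 15 days on porous inserts, so that cell bodies (with some neurites) lay on top of the membrane and dendrites and axons below it. WT neurons came from C57BL/6 mice and Mettl3 KO neurons from Mettl3 flox/flox mice, and both received AAV carrying Cre-P2A-dTomato under the neuronal hSyn promoter at DIV 7, so the WT controls also carried Cre and the genotypes cannot be told apart from the strains. All neurons were silenced from DIV 14 by TTX (1 µM) together with D-AP5 (50 µM), which lasted 16 h, and were then either left untreated (Ctrl) or given 2 h of depolarisation in 55 mM KCl. RNA-seq was done on 8 groups of 2 libraries (soma and neurites, WT and Mettl3 KO, Ctrl and KCl), each from 50 ng of RNA, and the 2 replicates of a group came from pooled pups of different litters. The DART-seq tables pool 16 libraries of the same groups.

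Microtubules run through dendrites and axons, and microtubule-associated proteins bind along them, stabilise them and set their spacing. MAP2, tau (from Mapt) and MAP4 form a family with a shared type of microtubule-binding repeat. MAP2 is the standard marker of dendrites, tau is concentrated in axons, and MAP4 is found in many cell types. MAP1A and MAP1B are related large proteins cut into a heavy and a light chain, MAP1B being prominent in growing axons and MAP1A in mature neurons. MAP6, also called STOP, protects microtubules from cold and drugs. Map2 mRNA is among the earliest mRNAs described in dendrites. m6A, the methylated adenosine deposited by METTL3 and its partners, is the most abundant internal mark of mRNA.

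The depth ran from 33789183 to 71394235 counts per library, and each member held between 4778 and 407128 counts in every library, so counting error is small beside the spread between replicates. That spread was larger in Mettl3 KO: over genes, the SD of the log2 ratio between the 2 replicates was 0.187 to 0.389 in the WT groups and 0.538 to 1.43 in the Mettl3 KO groups. Mettl3, the targeted gene, had 13.5 to 16.7 CPM in the 4 WT soma libraries and 6.18 to 10.97 in the 4 Mettl3 KO soma libraries, and 9.04 to 12.4 against 3.91 to 8.23 in neurites, without overlap within a compartment but not at 0. In Ctrl its log2 change in Mettl3 KO was −0.73 (SE 0.39) in soma and −1.19 (SE 0.39) in neurites, neither of them called (edgeR adjusted p = 0.624 and 0.423; limma voom called the neurite change, adjusted p = 0.0325), and the count covers the whole gene, so it does not separate the deleted exons. Neuron markers, 8 of 8 detected in each library, summed to 2192 to 4649 CPM in 14 libraries. Insert 1 of the KCl-treated Mettl3 KO neurons stood apart in both its libraries, with 1451 CPM in soma and 743 in neurites. Their oligodendrocyte-lineage markers (7 of 7 detected) summed to 3605 and 7261 CPM, against 38.5 to 172 in the other 14 libraries, and their astrocyte markers, of which 6 of 6 were detected in every library, to 9084 and 17986 CPM, against 951 to 5700. Calls on untreated Mettl3 KO neurons are therefore also given without this insert.

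Levels are given as CPM, which scales a gene's count by the TMM-adjusted library total, and genes are compared with each other only per kilobase of exon. The exon length merges all annotated exons, 16449 bases for Map2 and 12166 for Map1a. Their transcripts with the longest coding sequence have 6258 and 11825 bases. The order of the members below Map1b therefore depends on the length used. All 6 mRNAs were detected in every library, the lowest level being 82.6 CPM for Map6. Map1b was the most abundant in every group, at 234 ± 24.8 CPM per kb (SD, n = 2) in soma of WT Ctrl and 463 ± 59.2 in its neurites, above at least 98.6% of the genes whose mean count was 10 or more in each of the 8 groups. In WT Ctrl soma, Mapt followed with 41.9 CPM per kb, then Map1a with 31.5, Map2 with 27.7, Map6 with 23.4 and Map4 with 19.6, and no neighbours in this order overlapped in their 2 replicates. The order differed in WT Ctrl neurites. Map1a (98.9 CPM per kb) and Map2 (98.1) came after Map1b and overlapped each other, and Mapt (56.7), Map4 (29.7) and Map6 (22.1) followed without overlap. In Mettl3 KO Ctrl neurites Map2 was below Mapt, with 35.1 CPM per kb against 68.2, also without overlap.

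**Figure D1:**
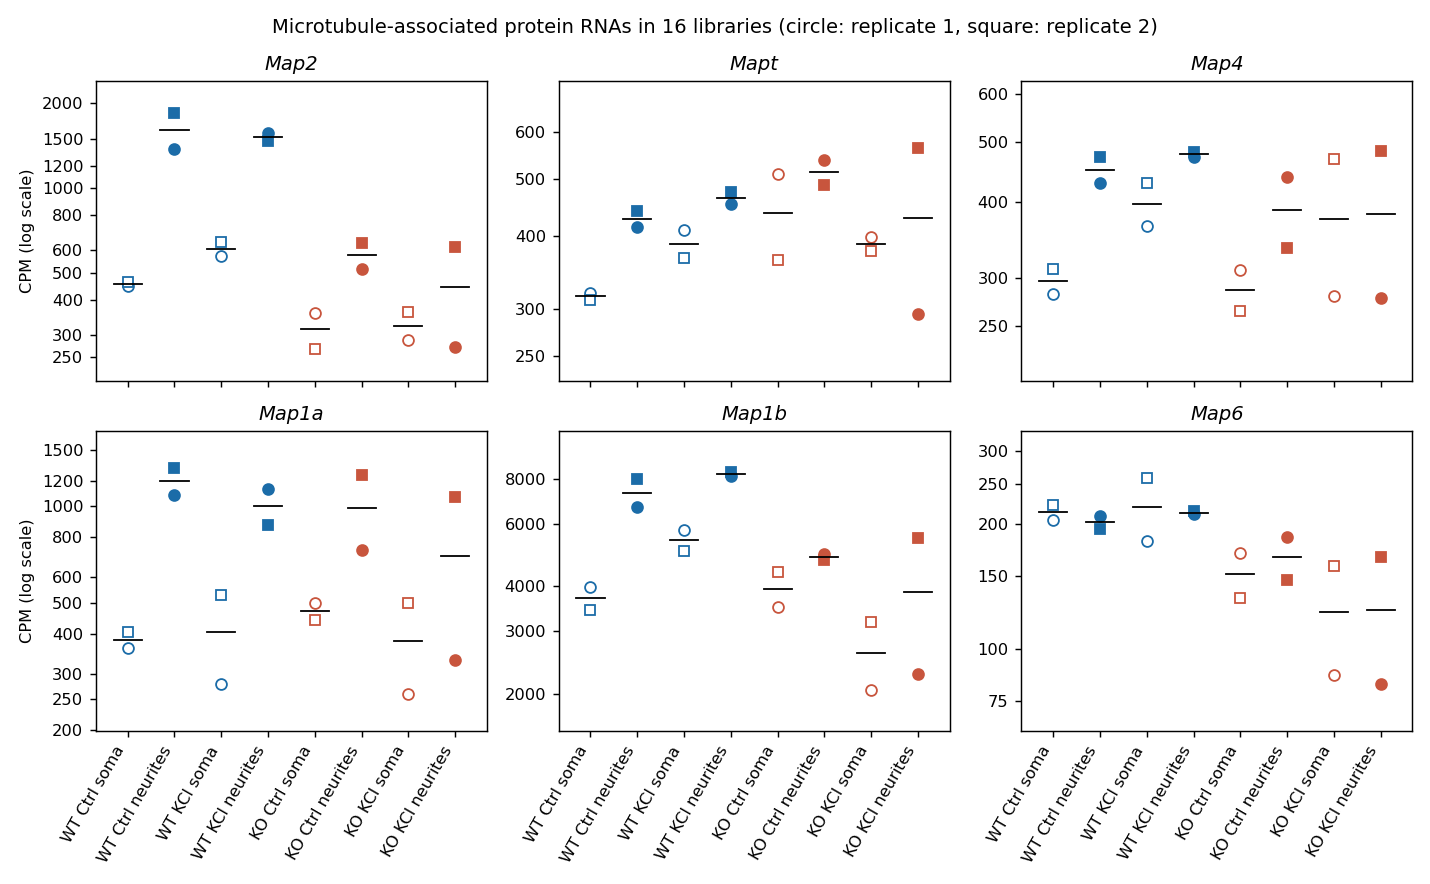
TMM-scaled CPM (log axis) of the 6 mRNAs in each of the 16 RNA-seq libraries, with WT in blue, Mettl3 KO in red, soma as open and neurites as filled symbols, circles for replicate 1 and squares for replicate 2, and a black line at the mean of the 2 replicates. All WT neurite libraries lie above all WT soma libraries for Map2, Map1a and Map1b. They do so by a small margin for Mapt (lowest neurite 413.5, highest soma 408.5 CPM) and Map4 (428.28 and 428.18 CPM). The KCl-treated Mettl3 KO circles lie low for Map1a, Map1b and Map6.

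Whether the mRNAs are enriched in neurites was first asked in untreated WT neurons. A gene was called at 1.5-fold and an adjusted p of at most 0.05 (edgeR quasi-likelihood test, two-sided, Benjamini-Hochberg over all genes tested). Map2, Map1a and Map1b were called higher in neurites, so 3 of 6 members, where 9.01% of the 23200 genes tested were called higher, 4.54% lower and 13.6% in either direction. The members' median log2 change was 0.70, against −0.10 over all genes tested.

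Map2 mRNA had 447 and 463 CPM in the 2 WT Ctrl soma libraries and 1381 and 1847 CPM in the 2 neurite libraries. The neurite libraries were both well above the soma libraries, by 3.09-fold in insert 1 and 3.99-fold in insert 2. The log2 change was 1.73 (SE 0.14, edgeR adjusted p = 0.000117), higher than in 98.9% of the genes tested. Map2 shares 124 of its 16449 exon bases on chromosome 1 (66175273 to 66442583, plus strand, GRCm38) with Gm10558 on the opposite strand, and the counting did not use strand.

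Mapt, on chromosome 11 (104231390 to 104332090, plus strand), and Map4, on chromosome 9 (109931460 to 110083955, plus strand), were higher in neurites by less than 1.5-fold. Mapt had 320.5 and 311 CPM in WT Ctrl soma and 413 and 440.0 CPM in neurites, a log2 change of 0.34 (SE 0.10, edgeR adjusted p = 0.0384). Map4 had 282 and 310 CPM in soma and 428 and 472 in neurites, a log2 change of 0.51 (SE 0.12, edgeR adjusted p = 0.0144). For both genes each neurite library exceeded each soma library, and the adjusted p passed while the fold did not, so neither was called. Fitted on only the 4 untreated WT libraries, Map4 reached a log2 change of 0.59 and was called (edgeR adjusted p = 0.00382).

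Map1a, on chromosome 2 (121289600 to 121310832, plus strand), was enriched almost as much as Map2. It had 361 and 406 CPM in WT Ctrl soma and 1086 and 1320 in neurites, with a log2 change of 1.56 (SE 0.26, edgeR adjusted p = 0.00326). Map1b, on chromosome 13 (99421446 to 99516540, minus strand), had 3986 and 3429 CPM in soma and 6670 and 7996 in neurites, with a log2 change of 0.89 (SE 0.12, edgeR adjusted p = 0.00102). Neither pair of groups overlapped. Map1a shares 272 exon bases with Ppip5k1 on the opposite strand.

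Map6, on chromosome 7 (99267447 to 99337137, plus strand), had no detectable enrichment. Its 205 and 223 CPM in WT Ctrl soma and 210 and 195 CPM in neurites overlapped, and the log2 change was −0.18 (SE 0.16, edgeR adjusted p = 0.450).

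In KCl-treated WT neurons the same 3 genes were called higher in neurites, where 6.87% of the 23028 genes tested were called higher, 2.73% lower and 9.6% in either direction. Map2 had 575 and 641 CPM in soma and 1574 and 1474 in neurites, again without overlap, with a log2 change of 1.34 (SE 0.14, edgeR adjusted p = 0.000524). Map1a had 279 and 529 CPM in soma and 1135 and 875 in neurites, so that the enrichment was 4.07-fold in insert 1 and 1.66-fold in insert 2, with a log2 change of 1.33 (SE 0.26, edgeR adjusted p = 0.00842). Map1b had 5775 and 5029 CPM in soma and 8137 and 8382 in neurites, with a log2 change of 0.63 (SE 0.12, edgeR adjusted p = 0.00746), close to the 1.5-fold limit. Mapt (log2 change 0.27, SE 0.10), Map4 (0.28, SE 0.12) and Map6 (−0.03, SE 0.15) were not called, with edgeR adjusted p of 0.102, 0.142 and 0.916.

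The WT calls rested on a fit to the 8 WT libraries. In a fit to all 16 libraries, where the spread is shared with Mettl3 KO, none of the 6 was called in WT Ctrl or WT KCl, with the same directions (Map2: edgeR adjusted p = 0.202 and 0.713, at log2 changes of 1.83 and 1.33). That fit called 0 of 23200 and 0 of 23028 genes tested, so the loss of these calls is not particular to the members. The smallest lead was that of Map1b under KCl, which was not called without soma replicate 2 (log2 change 0.54), without neurite replicate 1 (edgeR adjusted p = 0.0619) or without neurite replicate 2 (0.0539), and Map1a under KCl was not called without neurite replicate 1 (0.0807). Astrocyte markers also differed between the compartments, summing to 951 to 968 CPM in WT Ctrl soma and 1722 to 2600 CPM in neurites. Neuron markers summed to 2999 to 3193 and 3285 to 3712 CPM. Of these, Snap25, Gad1 and Syt1 had a lower mean in neurites and the others a higher one. The markers' part in the members' changes was not tested.

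**Figure D2:**
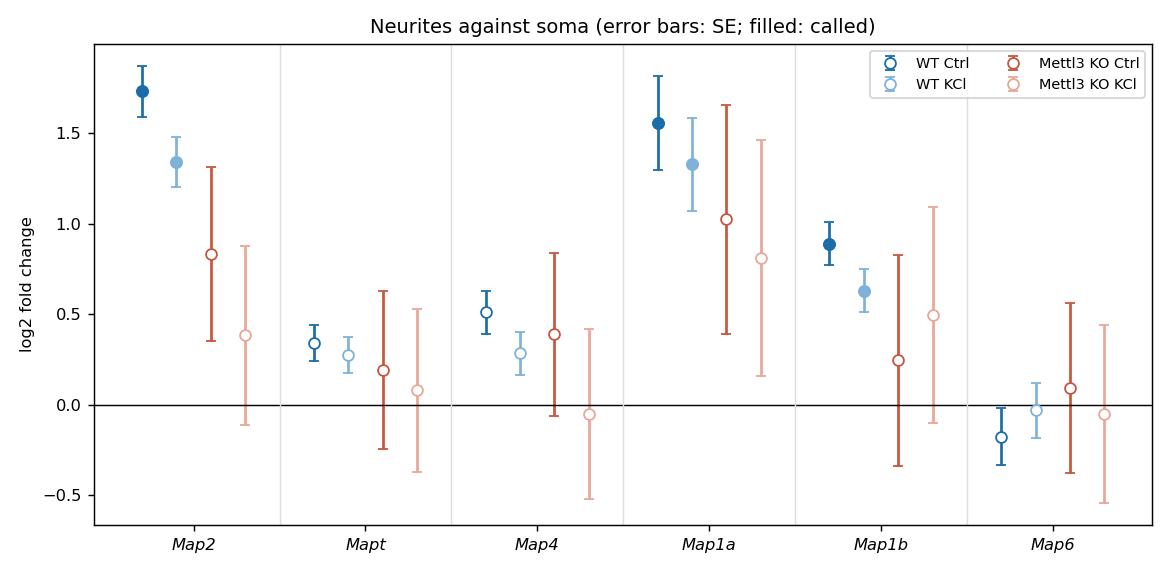
Log2 fold change of neurites over soma for each mRNA in WT Ctrl, WT KCl, Mettl3 KO Ctrl and Mettl3 KO KCl, from edgeR, with the SE as error bars and filled symbols where a change was called. Filled symbols appear for Map2, Map1a and Map1b in WT, and the Mettl3 KO error bars are longer for each gene.

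In Mettl3 KO neurons none of the 6 mRNAs was called in neurites against soma, with or without KCl (edgeR, fitted to the 8 Mettl3 KO libraries). None passed an unadjusted p of 0.05 in this fit, which had no term for the insert, while 1239 and 132 of all genes did. In some alternative fits Map2 and Map1a in Ctrl and Map1a with KCl passed it, but none was called. DESeq2 called 0 of 6 in both, and 17 of 22557 and 0 of 23152 genes tested. The edgeR background was 0% of the same genes. Without insert 1 of the KCl-treated neurons 0 of 6 were called in Ctrl, where 0 of 22557 genes were. The KCl groups then held 1 library each, so no count is given for them. The SEs of the members' log2 changes were 0.44 to 0.65, against 0.10 to 0.26 in WT, so the values are given as a description. Map2 had 360.5 and 268 CPM in Ctrl soma and 517 and 636 in Ctrl neurites, or 1.43-fold and 2.37-fold more in neurites, with a log2 change of 0.83 (SE 0.48, edgeR adjusted p = 0.841). Both Mettl3 KO Ctrl ratios lay below both WT Ctrl ratios. Under KCl, Map2 had 288 and 362 CPM in soma and 271 and 617 in neurites, and the ratio was 0.943 in insert 1, which stood apart, and 1.71 in insert 2.

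Map1a had the highest ratios in Mettl3 KO, 1.46 and 2.83 in Ctrl and 1.28 and 2.13 under KCl, with log2 changes of 1.03 (SE 0.63) and 0.81 (SE 0.65). Map1b had ratios of 1.41 and 1.09 in Ctrl and 1.11 and 1.72 under KCl. In Ctrl the ratios were 1.06 and 1.34 for Mapt, 1.42 and 1.27 for Map4, and 1.09 and 1.11 for Map6. Under KCl, insert 1 had ratios of 0.741 for Mapt, 0.990 for Map4 and 0.953 for Map6, and insert 2 had ratios above 1 for all 3. All 4 Mettl3 KO inserts had more Map1a and Map1b in neurites than in soma, as did 3 of 4 for each other member.

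KCl-induced depolarisation was asked about next, within each compartment of WT neurons, with a call at 2-fold and an adjusted p of at most 0.05. None of the 6 members was called in soma, where 6.7% of 24060 genes were called, and none in neurites, where 5.03% of 22059 genes were called. DESeq2 called 0 of 6 in both, and 1502 and 1178 of all genes. In soma 3 of 6 and in neurites 0 of 6 had an unadjusted edgeR p of at most 0.05. Over all genes, 6270 of 24060 in soma and 5035 of 22059 in neurites had one. Map1b went in soma from 3986 and 3429 to 5775 and 5029 CPM, a log2 change of 0.47 (SE 0.12, edgeR adjusted p = 0.0253) that passed the p but was short of 2-fold. Map2 went from 447 and 463 to 575 and 641 CPM in soma, a log2 change of 0.34 (SE 0.14, edgeR adjusted p = 0.139), and that of Map4 was 0.35 (SE 0.12, edgeR adjusted p = 0.0814). For these 3 genes both KCl soma libraries lay above both Ctrl libraries.

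The 2 KCl soma replicates of Map1a, 279 and 529 CPM, lay on either side of the Ctrl values, so its log2 change of 0.01 (SE 0.25) averages opposite replicates. Mapt and Map6 had log2 changes of 0.22 (SE 0.10) and −0.03 (SE 0.15) in soma. In neurites the changes ran from −0.22 (Map1a, SE 0.26) to 0.21 (Map1b, SE 0.12). Map2 in neurites had 1574 and 1474 CPM with KCl, between the 1381 and 1847 CPM without it, and a log2 change of −0.04 (SE 0.14). Summed neuron markers were higher with KCl, 4404 to 4419 CPM in soma and 4128 to 4578 in neurites, but the single markers disagreed. In soma Nefl rose most, from a mean of 382 to 1166 CPM, and Rbfox3, Syn1 and Slc17a7 were lower with KCl. Rbfox3 and Slc17a7 were also lower with KCl in neurites. The markers' part in these values was not tested.

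**Figure D3:**
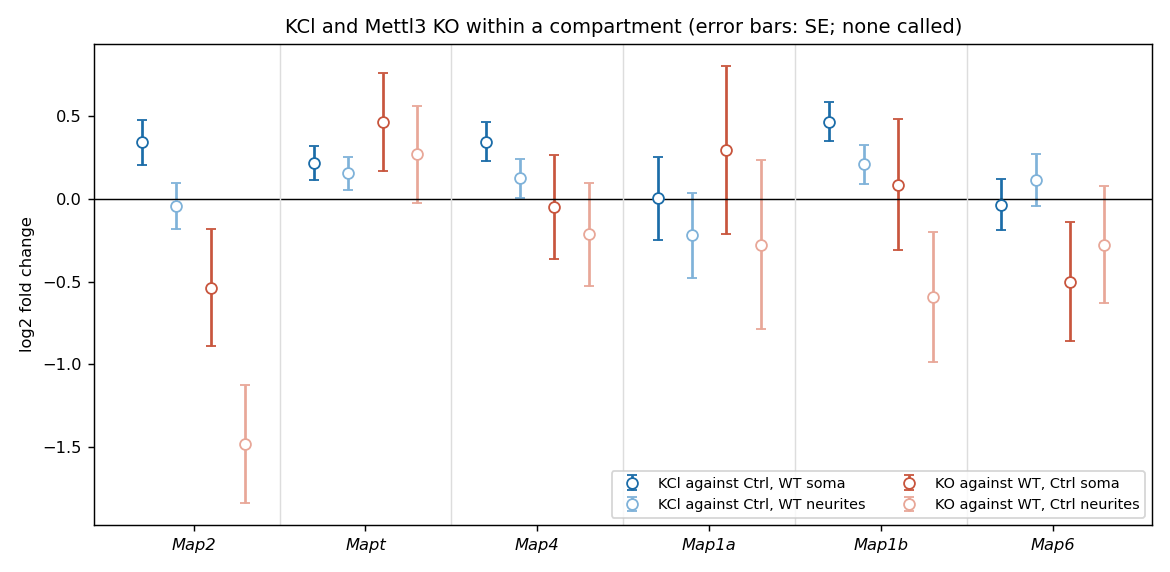
Log2 fold change of each mRNA with KCl against Ctrl in WT soma and WT neurites, and in Mettl3 KO against WT in Ctrl soma and Ctrl neurites, from edgeR with the SE as error bars; no change passed the call rule. Map2 in Mettl3 KO neurites lies farthest from 0, at −1.48.

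The effect of the Mettl3 KO was compared between untreated neurons of the 2 genotypes, with the fit to all 16 libraries and a call at 1.5-fold. None of the 6 members was called in soma (0.185% of 23750 genes called) or in neurites (0.188% of 21814 genes called). DESeq2 called 0 of 6 and 1 of 6, and 413 and 313 of all genes. An unadjusted edgeR p of 0.05 was passed by 0 and 1 members, and by 2131 and 1629 of all genes. Without insert 1 of the KCl-treated Mettl3 KO neurons 0 of 6 were called in soma and 1 of 6 in neurites, and 419 and 270 of all genes. The gene that passed in each of these was Map2 in neurites. It had 1381 and 1847 CPM in WT and 517 and 636 CPM in Mettl3 KO, without overlap. The log2 change was −1.48 (SE 0.36, edgeR adjusted p = 0.192, unadjusted p = 0.00141), and 1.80% of the genes tested had a lower one.

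Whether this difference in Map2 was called depended on the fit. It was called with DESeq2 (adjusted p = 0.0143), with limma voom and sample quality weights (0.00255), with no filter on low counts (edgeR, 0.0177), with the 4 neurite libraries alone (edgeR, 0.0414) and without KCl-treated Mettl3 KO insert 1 (edgeR, 0.0139). Over all 12 alternatives the log2 change stayed between −1.68 and −1.26, and the adjusted p ran from 0.00255 to 1.00, the largest without WT neurite replicate 2. Summed neuron markers were also lower in the Mettl3 KO Ctrl neurites, at 2192 to 2587 CPM against 3285 to 3712 CPM in WT, and astrocyte markers were at 2490 to 5700 against 1722 to 2600 CPM. Their part in the Map2 difference was not tested, and fewer neuronal processes and less Map2 mRNA per process cannot be told apart in bulk RNA.

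In soma Map2 had 360.5 and 268 CPM in Mettl3 KO Ctrl against 447 and 463 in WT Ctrl, a log2 change of −0.54 (SE 0.35, edgeR adjusted p = 0.712). Across both treatments, the 4 Mettl3 KO soma libraries (268 to 362 CPM) lay below the 4 WT ones (447 to 641), and the 4 Mettl3 KO neurite libraries (271 to 636) below the 4 WT ones (1381 to 1847). Map1b in neurites had 4943 and 4760 CPM in Mettl3 KO against 6670 and 7996 in WT, without overlap, and a log2 change of −0.59 (SE 0.39, edgeR adjusted p = 0.879). Mapt had positive log2 changes in both compartments, 0.47 (SE 0.30) in soma and 0.27 (SE 0.29) in neurites. Map1a (0.30 and −0.28), Map4 (−0.05 and −0.21) and Map6 (−0.50 and −0.28) had SEs of 0.31 to 0.51, and all of these edgeR adjusted p were at least 0.699.

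A change in neurite enrichment, the difference between 2 neurite-to-soma ratios, was fitted with a term for each insert, taking soma and neurite libraries with the same replicate number as 1 insert. A call needed 1.5-fold and p of 0.05 or less before adjustment, and the adjusted p is given beside it. Between Mettl3 KO and WT in Ctrl, Map2 was called, 1 of 6 members, where 4.19% of 22942 genes were called (1.28% with a fall). Its log2 enrichment fell by 0.93 (SE 0.38, unadjusted p = 0.0397, edgeR adjusted p = 0.934), from WT ratios of 3.09 and 3.99 to Mettl3 KO ratios of 1.43 and 2.37. Map1b (−0.68, SE 0.34) and Map1a (−0.62, SE 0.50) had differences in the same direction without a call, Mapt (−0.18, SE 0.36) and Map4 (−0.18, SE 0.25) were nearer 0, and Map6 had 0.22 (SE 0.28). Map1b was called with no filter on low counts (unadjusted p = 0.0341) and without Mettl3 KO Ctrl insert 1 (log2 difference −0.86, unadjusted p = 0.0350). Summed neuron markers were higher in neurites than in soma in WT Ctrl (3285 to 3712 against 2999 to 3193 CPM) but overlapped in Mettl3 KO Ctrl (2192 to 2587 against 2232 to 3206 CPM). The single markers disagreed. In WT Ctrl mean Nefl was 382 CPM in soma and 704 in neurites, and Snap25, Gad1 and Syt1 were lower in neurites. In Mettl3 KO Ctrl only Syn1 and Nefl were higher in neurites. The markers' part in these differences was not tested.

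The Map2 call was not firm. It was lost without the insert terms (unadjusted p = 0.0799), with only the Ctrl libraries (unadjusted p = 0.0522), with only genes averaging 100 counts (unadjusted p = 0.0632), and without WT Ctrl insert 1 (unadjusted p = 0.0676), WT Ctrl insert 2 (unadjusted p = 0.193) or Mettl3 KO Ctrl insert 1 (log2 difference −0.56, unadjusted p = 0.155). It was kept without KCl-treated Mettl3 KO insert 1. With KCl in WT, none of the 6 members was called by edgeR, where 3.36% of 23200 genes were. DESeq2 called 0 of 6 members and 498 of all genes. An unadjusted edgeR p of 0.05 was passed by 0 of 6 members and by 965 of all genes. Of the 6 log2 differences 5 were below 0, while 56.5% of all genes tested were above 0. That share depends on the scaling: the median over all genes was 0.049 with TMM and −0.016 with RLE. Map2 had −0.37 (SE 0.21, unadjusted p = 0.105) and Map1b −0.26 (SE 0.21). Map1a had −0.16 (SE 0.37), which became −0.83 and called without WT KCl insert 1 and 0.51 without insert 2.

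Genes with the most similar pattern were ranked by the root mean square difference of their log2 CPM over the 16 libraries, each gene centred on its own mean, among the 15164 genes averaging 100 counts or more. Closest to Map2 were Trak2, which encodes an adaptor of kinesin for mitochondria, at 0.202, then Nav3 (0.239), the transcript 9330102E08Rik (0.259), Ppp1r12b (0.276) and Chd9 (0.278). Closest to Mapt were Dhps (0.151) and Slc25a4 (0.153). Map4 was closest to Fam168a (0.112) and Fto (0.129), which encodes an RNA demethylase. Map1a had Neurl1a (0.216) and Iqsec2 (0.266), Map1b had Purb (0.185) and R3hdm4 (0.186), and Map6 had Tmem127 (0.0779) and Slc39a3 (0.126). The members were less alike than that: the closest pair were Mapt and Map4 at 0.284, and Map2 was 0.458 from Map1b, 0.577 from Map1a and 0.831 from Mapt. The 16 points are 8 groups of 2 libraries, so they are not independent. They include both libraries of KCl-treated Mettl3 KO insert 1, which stood apart in its glial markers. No ranking was made without that insert, and its part in these distances was not tested.

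Other microtubule genes were taken from a list of 44, which holds structural and doublecortin-family proteins, end-binding and end-capping proteins, severing enzymes and kinases of these proteins. In WT Ctrl, 43 could be tested, 4 were called higher and 2 lower in neurites, which is near the background of 9.01% higher and 4.54% lower over all genes and so no result about the list. The median log2 change was 0.09 against −0.10 over all genes. The higher ones by smallest p were Map6d1, a relative of Map6 (log2 change 0.90, SE 0.12, edgeR adjusted p = 0.000889), Map1lc3a, which encodes the autophagy protein LC3A (0.65, SE 0.10, 0.00270), and Tppp, a tubulin polymerisation promoter (0.66, SE 0.13, 0.00674). The lower ones were its relative Tppp3 (−0.71, SE 0.13, 0.00543) and Katna1, the severing subunit of katanin (−0.65, SE 0.15, 0.0140). None of the 13 end-binding and end-capping genes was called by edgeR in WT Ctrl. An unadjusted p of at most 0.05 was reached by 3 of the 13, and by 8015 of the 23200 genes tested. Of these calls, leaving out 1 library ended that of Map1lc3a (log2 change 0.55 without neurite replicate 2), Tppp (edgeR adjusted p = 0.0555 without soma replicate 1 and 0.0548 without neurite replicate 2), Tppp3 (0.119 without soma replicate 2) and Katna1 (up to 0.182, without soma replicate 2), but not that of Map6d1.

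Under KCl, 4 of 43 list genes were called higher and 1 lower in WT neurites, against a background of 6.87% higher and 2.73% lower. By smallest p the higher ones were Map6d1 (log2 change 1.04, SE 0.12, edgeR adjusted p = 0.000705), Cdk5r1, which encodes the p35 activator of CDK5 (1.04, SE 0.17, 0.00342), and Ttbk1, a tau-tubulin kinase (0.95, SE 0.26, 0.0361), and the lower one was Katna1 (−0.72, SE 0.15, 0.0112). Cdk5r1 was the single list gene of 43 called for KCl in WT soma (background 6.7%), where it fell by 1.33 on the log2 scale (SE 0.17, edgeR adjusted p = 0.000498). Leaving out 1 KCl neurite library ended the calls of Ttbk1 (edgeR adjusted p = 0.185 without replicate 1 and 0.0965 without replicate 2) and of Katna1 (0.0543 and 0.0971). Ttbk1 had a log2 change of 0.55 without soma replicate 1, which was not called, and 1.56 without soma replicate 2, and with only the KCl-treated WT libraries it was not called (edgeR adjusted p = 0.0614). The fit to all 16 libraries ended each of these calls in WT, with the same directions. It called 0 of 23028 genes in WT KCl neurites against soma and 341 of 24060 for KCl in WT soma. No list gene was called in the other WT or Mettl3 KO comparisons within a compartment or between neurites and soma of Mettl3 KO (edgeR). For changes in neurite enrichment, Cdk5r1 (0.82, SE 0.24, unadjusted p = 0.00790) and Map7d1 (0.86, SE 0.28, unadjusted p = 0.0142) were called with KCl, 2 of 43 where the background was 3.36%, and Map1lc3a (0.97, SE 0.42, unadjusted p = 0.0473) in Mettl3 KO, 1 of 43 where it was 4.19%. Without the insert terms Map7d1 (unadjusted p = 0.0572) and Map1lc3a (unadjusted p = 0.379) were not called, and without WT KCl insert 1 Cdk5r1 and Map7d1 had log2 differences of 0.49 and 0.41 and were not called. Without WT Ctrl insert 1, Cdk5r1 (unadjusted p = 0.0530), Map7d1 (unadjusted p = 0.0593) and Map1lc3a (unadjusted p = 0.178) were not called either. Map1lc3a was also not called without WT Ctrl insert 2 (unadjusted p = 0.0899) or Mettl3 KO Ctrl insert 2 (log2 difference 0.44, unadjusted p = 0.227), and had 1.58 without Mettl3 KO Ctrl insert 1, while Map7d1 had 1.33 without WT KCl insert 2.

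All 6 mRNAs carried DART-seq sites. In this assay RNA is incubated with a fusion of the cytidine deaminase APOBEC1 and the m6A-binding YTH domain, which edits cytidines beside m6A to uridine. The authors called a site only at a C in AAC or GAC, with editing above each Mettl3 KO library, so the preference for WT and for these letters is part of the rule and is no finding. Of 18231 sites in 5643 RNAs, the members held 94: 23 in Map1a, 18 each in Map1b and Map4, 16 in Map2, 11 in Mapt and 8 in Map6. The median RNA with a site had 2. By number of sites Map1a ranked at place 3 and Map2 at place 29 of the 5603 RNAs matched to the count table. Site calling needs reads, and the members are highly expressed. Among the 676 RNAs with a mean WT count at or above that of Map6, the lowest member, the median was 4 sites, and 99.6% had fewer than Map1a, 97.6% fewer than Map1b or Map4, 96.3% fewer than Map2, 90.7% fewer than Mapt and 78.3% fewer than Map6. This set has a floor only and is not matched to each member in depth. The mean WT count was 11939 for Map6, 51618 for Map2 and 320404 for Map1b.

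Per kilobase of exon the members were nearer to other RNAs. Map1a had 1.89 sites per kb, Mapt 1.46, Map4 1.19, Map1b 1.14, Map2 0.973 and Map6 0.874, against a median of 0.832 over the 676 RNAs. Among these, 88.6% were less dense than Map1a and 51.9% less dense than Map6. These lengths are of all annotated exons merged, so they are longer than any single mRNA.

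The 2 most edited sites of each member are printed to show the sequence around the edited base and the part of the mRNA it lies in. Each window is 21 bases of the sense strand from GRCm38, 5′ to 3′, with T for U, and the capitals mark the AAC or GAC whose last base is the edited C.
Map2, 3′UTR, chr1:66440353-66440373 (plus strand), edited at 12.8%: cccccaaaGACctcttgatca
Map2, coding sequence, chr1:66413558-66413578 (plus strand), edited at 10.2%: gaagagaaAACagctgacaaa
Mapt, coding sequence, chr11:104282457-104282477 (plus strand), edited at 4.87%: gagacatgGACcatggcttaa
Mapt, 3′UTR, chr11:104331105-104331125 (plus strand), edited at 4.11%: tcagtgagGACaatcccccag
Map4, 3′UTR, chr9:110083414-110083434 (plus strand), edited at 18.8%: ataatcttGACactgaatccc
Map4, coding sequence, chr9:110064252-110064272 (plus strand), edited at 9.13%: aagacttcAACatcgaaagcc
Map1a, coding sequence, chr2:121303902-121303922 (plus strand), edited at 10.8%: cacagacaGACagagctccag
Map1a, coding sequence, chr2:121300351-121300371 (plus strand), edited at 8.13%: caaaatcaAACatcgggccga
Map1b, 3′UTR, chr13:99421497-99421517 (minus strand), edited at 13.6%: aaacaaacAACagaaactcag
Map1b, coding sequence, chr13:99434689-99434709 (minus strand), edited at 12.6%: actggagaAACtcaaacatct
Map6, 5′UTR, chr7:99268011-99268031 (plus strand), edited at 6.07%: ttgtggctAACatggcgtggc
Map6, coding sequence, chr7:99336406-99336426 (plus strand), edited at 4.75%: agcttcccAACaccagcacct

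The percentages are the authors' means over WT libraries, and the reads behind each are unknown. Most sites were edited weakly: the median over the members' 94 sites was 3.14%, against 3.54% over all sites, and each member's lowest site was below 1%. In Map6 the most edited C is the last base before the start codon, seen as the atg that follows the capitals. The wider m6A motif, which is A, G or T, then AAC or GAC, then A, C or T on the sense strand, was present at 71 of the 94 member sites (75.5%) and at 70.9% of all sites.

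Sites were placed in the transcript of each gene with the longest coding sequence (GENCODE M21). Of the 94, 74 lay in that transcript, and of these 60 (81.1%) were in the coding sequence, 11 (14.9%) in the 3′UTR and 3 in the 5′UTR. Of the 16902 sites of all RNAs in such transcripts, 64.4% were in the coding sequence and 31.8% in the 3′UTR, and in the 676 RNAs these shares were 60.7% and 34.7%. Within 500 bases of the end of the coding sequence, where m6A is commonly dense, lay 10.8% of these 74 sites against 38.2% of the 16902, and 28.2% in the 676 RNAs. In contrast, 38 of the 60 coding sites of the members (63.3%) were in exons of at least 1000 bases, against 14.9% of all coding sites and 16.4% in the 676 RNAs. Map2, Map1a and Map1b have coding exons of 3741 bases or more, and no test was made, since sites of 1 mRNA are not independent. The members' shares in the 3′UTR and near the end of the coding sequence depend on the chosen transcript. Those of Map2 and Mapt have 3′UTRs of only 184 and 3 bases, so sites in the longer 3′UTRs of other transcripts are left out. Shares over any annotated transcript were not compared with other RNAs.

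Map1a had 19 of its 23 sites in exon 5, which is 8104 bases long, and 2 in the 3′UTR. Map1b had 7 of 18 in its exon 5 of 6490 bases, 4 in exon 1 of 237 bases and 6 in the 3′UTR. Map2 had 7 of 16 sites in exon 7, a 3741-base coding exon (chromosome 1, 66412407 to 66416147) that 6 of its 7 basic coding transcripts skip and that is known from the high-molecular-weight forms of MAP2. Its other 7 coding sites lay in the later, shorter exons 8 to 14. The remaining 2, among them the most edited site of Map2, lay beyond the 3′UTR of the chosen transcript, in a 3790-base last exon of another.

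Mapt and Map4 had most of their sites outside the chosen transcript. The chosen Mapt transcript has a 3′UTR annotated at 3 bases, and 7 of its 11 sites lay in the 3′UTR of another transcript, in an exon of 4119 bases, with the other 4 in the coding sequence. For Map4, 5 of 18 sites lay in a 2994-base exon that is 3′UTR in another transcript, 6 in a 1475-base first exon that is coding in another, and 3 of the rest in the 3′UTR of the chosen transcript. Counting any annotated coding transcript, the members had 66 sites in the coding sequence, 25 in a 3′UTR and 3 in a 5′UTR. Map6 had 3 of 8 sites in its 5′UTR and none in a 3′UTR.

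**Figure D4:**
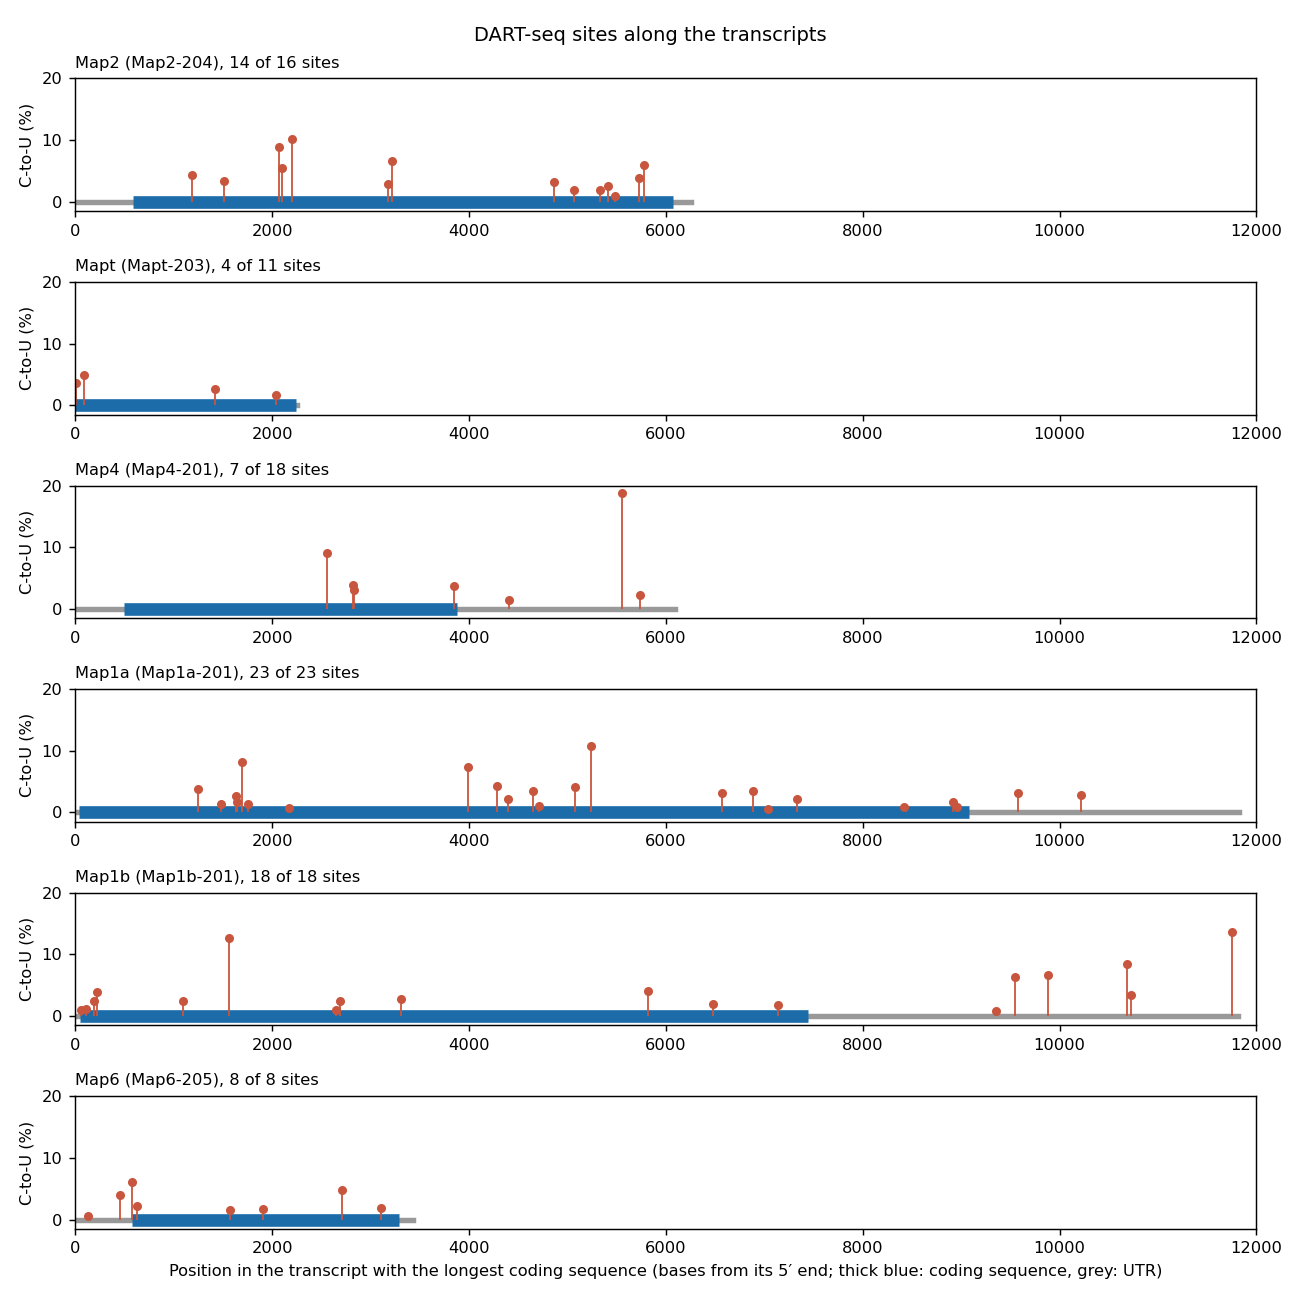
Position of each DART-seq site in the transcript with the longest coding sequence (bases from its 5′ end, coding sequence as a thick blue bar, UTRs in grey) against its C-to-U percentage, the authors' mean over WT libraries; sites outside that transcript are not drawn, which leaves out 2 sites of Map2, 7 of Mapt and 11 of Map4. The sites of Map1a and Map1b spread over their long coding exons, and the most edited site drawn is in the 3′UTR of Map4, at 18.8%.

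Scores sum the C-to-U fractions of an mRNA's sites, as averaged by the authors over libraries, so no spread between replicates can be given and no test was made. All 6 members had a higher score in WT than in Mettl3 KO, as the site rule requires. The WT score was 0.712 for Map2, 0.240 for Mapt, 0.772 for Map4, 0.606 for Map1a, 0.722 for Map1b and 0.193 for Map6. The ratio of the WT to the Mettl3 KO score ran from 2.14 for Mapt to 2.91 for Map1a, with Map6 above them at 4.09, and the median over the 676 RNAs was 2.55. Editing remained in Mettl3 KO at every member, with a score of 0.298 for Map2.

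Between the compartments of WT neurons, every member had the higher score in neurites. Map2 had 0.467 in soma and 0.825 in neurites, a ratio of 1.77. The ratio was 1.69 for Map1a, 1.55 for Map1b, 1.36 for Mapt, 1.35 for Map4 and 2.31 for Map6. Against the 676 RNAs this was not unusual: their median ratio was 1.46, 82.5% of them had the higher score in neurites, and 70.6% had a ratio below that of Map2. Map6, whose mRNA had no detectable enrichment in WT neurites, had the highest ratio of the 6, above 87.3% of the 676 RNAs, on 8 sites and the lowest soma score. The difference in the score itself was 0.161 for Map6 and 0.358 for Map2.

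**Figure D5:**
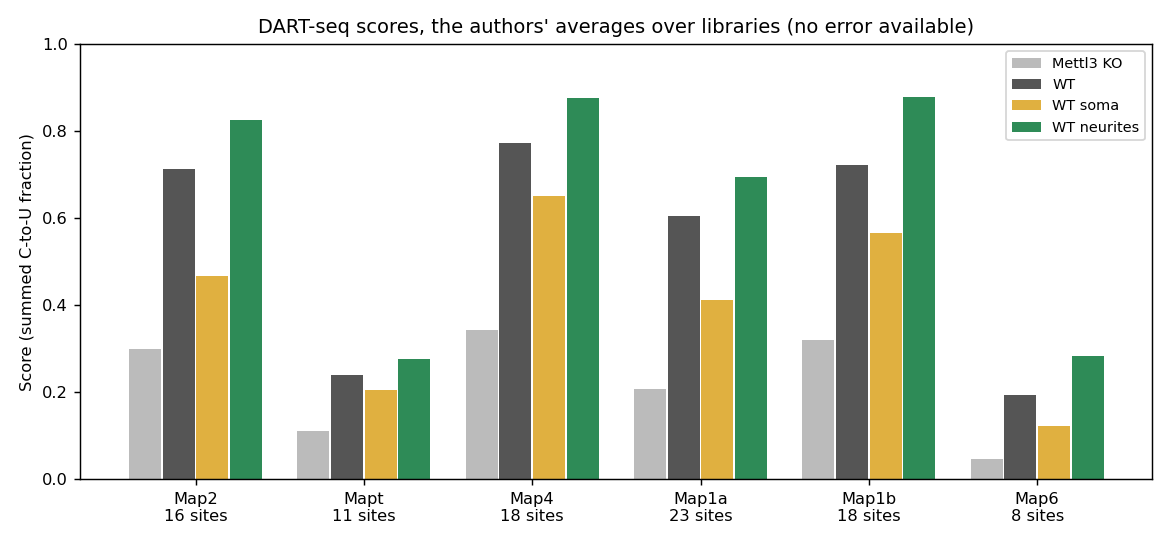
DART-seq score (summed C-to-U fraction over the called sites) of the 6 mRNAs in Mettl3 KO, in WT, and in soma and neurites of WT, as averaged by the authors over libraries, with the number of sites below each gene and no error available. For each gene the neurite bar is higher than the soma bar, and the Mettl3 KO bar is the lowest.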

How the data were processed

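The RNA-seq table holds whole-number counts per gene, which the authors made with Flexbar 3.5.0, STAR 2.7.7a (mm10) and featureCounts 2.0.1 on Ensembl GRCm38.97, counting multi-mapped read pairs and without strand. Exon length and the number of sites are as deposited. The deposited DESeq2 tables gave gene symbols and mean signal (size-factor scaled counts), and their fold change and p-value columns, like those of the DART-seq table, hold the authors' own comparisons and were not used. The DART-seq score and the C-to-U fraction of each site are the authors' means over libraries, so replicate error and site depth are unknown. Per the methods, sites needed 50 reads, 3 edits, 1% to 95% editing, and 1.25-fold more than each and 1.5-fold more than the mean Mettl3 KO library.

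Counts were tested with edgeR 4.0.16 (quasi-likelihood test, TMM scaling, R 4.3.3) for genes averaging 10 counts or more over the compared libraries, leaving out 37 mitochondrial genes, and p-values were adjusted by Benjamini-Hochberg over all genes tested. WT and Mettl3 KO enrichment were fitted on the 8 libraries of the genotype, since the spread in Mettl3 KO was known to be larger, and contrasts between genotypes on all 16. Changes in enrichment had 1 term per insert. With 2 replicates per group, p-values rest on spread pooled over genes and groups. DESeq2 1.42.0, limma 3.58.1, RLE scaling, other filters, other library sets, a replicate block and leaving out libraries were alternatives. Scripts were tested on simulated data. Site positions were matched to GRCm38 and GENCODE M21.

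The 6 members, the microtubule list and the markers were chosen with earlier results of these data known. Genes named were the members, Mettl3, the nearest genes in pattern (5 for Map2, 2 for the others) and, per comparison and direction, up to 3 called list genes of smallest p.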

Additional observations from a re-analysis of the deposited data

Results flagged for a closer look

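Changes in neurite enrichment, which are tests of a difference between the effects in 2 conditions, passed an unadjusted p of 0.05 and 1.5-fold for 1 member and 3 genes of the microtubule list, and none passed after adjustment. Over all genes the same rule called 3.36% with KCl and 4.19% in Mettl3 KO, and the 2 of 43 and 1 of 43 list genes are near these shares. The log2 neurite enrichment of Map2 differed between Mettl3 KO and WT in Ctrl by −0.93 (SE 0.38, edgeR adjusted p = 0.934), and the neurite-to-soma ratio was lower in both Mettl3 KO inserts than in either WT insert. For Map1lc3a the difference was 0.97 (SE 0.42, edgeR adjusted p = 0.934). With KCl in WT, the enrichment of Cdk5r1 differed by 0.82 (SE 0.24) and that of Map7d1 by 0.86 (SE 0.28), both with an edgeR adjusted p of 0.999.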

How the results depend on the processing

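Members called in neurites against soma fell from 3 to 0 in WT Ctrl and from 3 to 0 in WT KCl when all 16 libraries shared 1 estimate of the spread, and leaving out 1 library in turn gave 1 to 3 in WT KCl. The fit to all 16 libraries called 0 of 23200 and 0 of 23028 genes tested in these 2 comparisons. For Mettl3 KO against WT in Ctrl neurites the count was 0, and 1 (Map2) with DESeq2, with no filter on low counts, with the Ctrl neurite libraries alone, with limma voom and without KCl-treated Mettl3 KO insert 1. For the change in enrichment in Mettl3 KO it was 1, and 2 (Map2 and Map1b) with no filter, 0 with a mean of 100 counts, 0 with the Ctrl libraries alone, 0 with no replicate block and 0 to 1 leaving out an insert (Map1b without Mettl3 KO Ctrl insert 1, Map2 without Mettl3 KO Ctrl insert 2). For the change with KCl it was 0, and 0 to 1 leaving out an insert. With the length of 1 transcript in place of merged exons, and still counting all sites of the gene, of which that transcript holds only 14 of 16 for Map2, 4 of 11 for Mapt and 7 of 18 for Map4, sites per kb were 2.56 for Map2, 4.89 for Mapt, 2.96 for Map4, 1.95 for Map1a, 1.52 for Map1b and 2.33 for Map6, against a median of 1.34 over the 676 RNAs.

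Some log2 changes that were not called turned sign. Most were small, but in Mettl3 KO KCl neurites against soma that of Map1a was 0.81 and that of Map1b 0.49. In Mettl3 KO KCl neurites against soma, Mapt was −0.0037 with the replicate block, Map4 was 0.025 with all 16 libraries, 0.014 with the 4 libraries alone and 0.062 without insert 1, and Map6 was 0.023, 0.015 and 0.084. In WT soma with KCl, Map1a was −0.027 with the replicate block and Map6 0.038 with all 16 libraries, and Map1b in Ctrl soma of Mettl3 KO was −0.19 with the block. Leaving out 1 library, the log2 change in Mettl3 KO KCl ranged from −0.35 to 0.94 for Map2, −0.47 to 0.56 for Mapt, −0.53 to 0.40 for Map4, −0.30 to 1.504 for Map1a, −0.30 to 1.08 for Map1b and −0.67 to 0.48 for Map6. For Map6 it ranged from −0.24 to 0.25 in WT KCl and from −0.042 to 0.36 in Mettl3 KO Ctrl. With KCl in WT it ranged from −0.54 to 0.42 for Map1a and −0.32 to 0.22 for Map6 in soma, and −0.24 to 0.18 for Map2 in neurites. In Mettl3 KO against WT it ranged from −0.12 to 0.031 for Map4 and −0.11 to 0.29 for Map1b in soma, and −0.69 to 0.066 for Map1a in neurites. For the change in enrichment with KCl it ranged from −0.15 to 0.028 for Mapt, −0.83 to 0.51 for Map1a and −0.085 to 0.43 for Map6. The causes were not tested.

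The replicate number was used as a block because soma and neurites came from 1 insert, but same-numbered libraries did not deviate together in every group, with correlations of −0.141 in WT Ctrl, 0.0306 in WT KCl, 0.0757 in Mettl3 KO Ctrl and 0.898 in Mettl3 KO KCl. With the block, no member changed its call in the 8 comparisons that were fitted without it, and 2714 genes were called in WT Ctrl neurites against soma. The crossed pairing of WT Ctrl, chosen after seeing the data, gave 3 members and 3035 genes there, 0 and 887 for the change with KCl, and 1 and 1035 for the change in Mettl3 KO.

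The genes called over the alternatives ranged from 0 to 3809 in WT Ctrl and 0 to 2790 in WT KCl neurites against soma (main 3145 and 2211), from 0 to 1119 and 0 to 2 in Mettl3 KO Ctrl and KCl (main 0 and 0), from 341 to 2046 and 263 to 1761 with KCl in WT soma and neurites (main 1611 and 1109), from 0 to 2640 and 4 to 543 in Mettl3 KO soma and neurites (main 44 and 41), and from 291 to 1627 and 243 to 4933 for the changes in enrichment with KCl and in Mettl3 KO (main 779 and 962). RLE scaling turned the split of the genes called for the change with KCl from 465 higher and 314 lower to 343 higher and 447 lower, with no member called. The spread between 2 replicates, not depth, limits the Mettl3 KO comparisons, and the DART-seq values have no replicates here. For the change with KCl in WT, fitting the libraries of the comparison alone is the same fit.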
